A study of Homo sapiens with 3 samples.

Results

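MATR3 clusters were examined in 8 genes linked to amyotrophic lateral sclerosis (ALS): TARDBP, TAF15, EWSR1, ATXN2, TIA1, C9orf72, VCP and TBK1. The genes were chosen by name, and every cluster whose deposited gene name was one of the 8 was taken. This gave 348 of 388807 clusters, of which 338119 carried a gene name. A cluster is a stretch of overlapping reads that the authors called as a binding site. The 8 genes are not all RNA-binding proteins: TARDBP, TAF15, EWSR1, ATXN2 and TIA1 encode RNA-binding proteins, whereas VCP is an ATPase, TBK1 a protein kinase and C9orf72 a protein of membrane trafficking.

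The study used PAR-CLIP with an antibody against MATR3 in wild-type HEK293 cells (genotype HEK293-WT, treatment None), an established line from human embryonic kidney, in 3 biological replicates. In PAR-CLIP, cells take up a photoreactive uridine analogue, the protein is crosslinked to RNA by ultraviolet light, and a crosslinked uridine is read as C in place of T. All 3 libraries belong to one group and no control library exists, so each value is a level with its spread over replicates. A site below the limits of the tables was not seen, which were 4 reads, 2 conversion locations and 20 nt per cluster. The tables hold no expression values, so neither the RNA level of each gene nor markers of the cell line could be set beside the sites.

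MATR3 is a nuclear matrix protein with zinc fingers and RNA recognition motifs that binds pyrimidine-rich stretches of introns and takes part in alternative splicing. Mutations in its gene occur in some families with ALS. TARDBP encodes TDP-43, the protein that leaves the nucleus and aggregates in most patients, and several of the other genes encode proteins of stress granules, splicing or protein clearance.

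Clusters with a gene name held 1448303, 1328093 and 1358924 reads in replicates 1, 2 and 3. The 8 genes took 1615, 1463 and 1455 of these reads, in 116, 108 and 124 clusters. That was 0.112%, 0.110% and 0.107% of gene reads. Levels below are normalised reads, that is, a gene's cluster reads for every 1000000 cluster reads with a gene name in that replicate. The members' reads came from 553, 618 and 496 distinct reads, so copies of one molecule can be counted more than once.

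Of the 8 genes, 7 had a cluster in all 3 replicates, and C9orf72 had 1 cluster in replicate 2 alone. Of all genes with at least 1 cluster, 65.7% were represented in each replicate. ATXN2, EWSR1, TAF15 and TIA1 together held 283 of the 348 clusters and 82.6% of the reads. The range between genes was wide: ATXN2 reached 292 normalised reads ± 42.1 and TARDBP 14.8 ± 14.1 (SD, n = 3), while the median of the 8906 genes with a cluster in all replicates was 59.5.

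**Figure D1:**
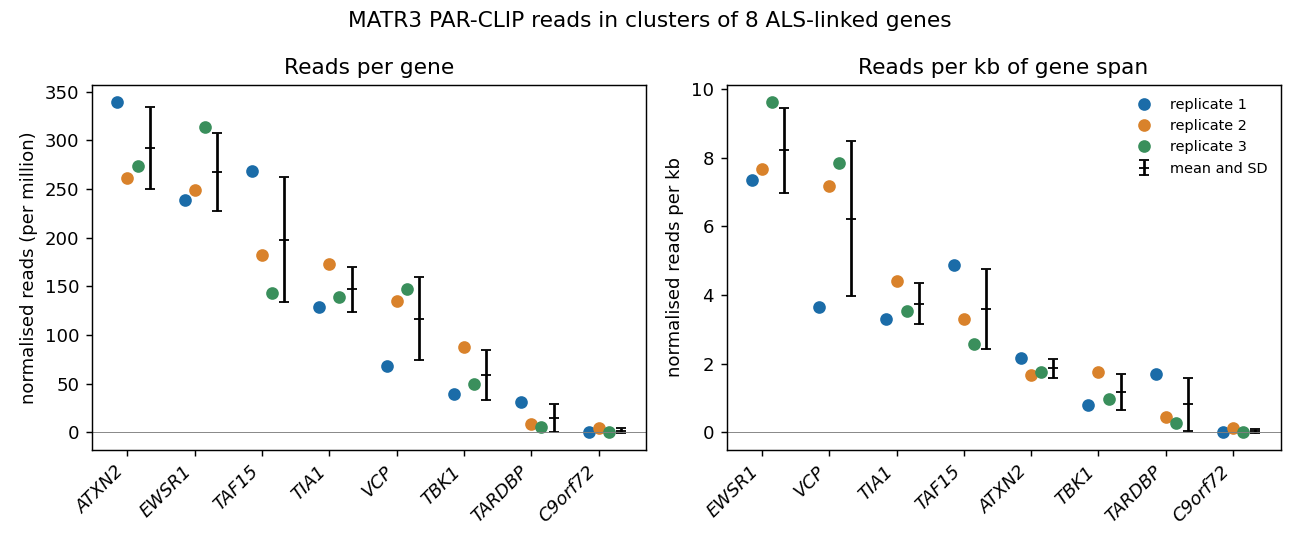
Normalised reads per gene (left, reads per 1000000 reads in gene-named clusters) and per kb of gene span (right) for the 8 genes, on linear axes. Points are the replicates, and the dash with bars is the mean and SD over 3 replicates. ATXN2 and EWSR1 lead per gene, with means of 292 and 267. EWSR1 and VCP lead per kb by deposited name, with means of 8.22 and 6.23 (TAF15 comes second, at 7.19, if clusters are assigned by GENCODE span), and the points of most neighbouring genes overlap.

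TARDBP carried very few sites. Its clusters numbered 2, 1 and 1 in replicates 1, 2 and 3, with 45, 11 and 7 reads, or 31.1, 8.28 and 5.15 normalised reads. Replicate 1 was the highest and lay well above the other two. The level of TARDBP exceeded that of only 13.1% of the 8906 genes. Per kb of gene span it exceeded that of 33.6% of the 8469 of them that could be given a span. The leading cluster of each replicate lay at a different place, and none of the 4 clusters overlapped a cluster of another replicate. The cluster of replicate 1 with 35 reads (11 distinct) lay in intron 2, at chr1:11016676-11016760 on the plus strand, 83 nt before the next exon. Of its 85 nt, 38 were T and 68.2% were pyrimidines. The leading cluster of replicate 2 had 11 reads (3 distinct) and lay in the same intron at chr1:11014368-11014431. Both are shown because they are the sites that carry most of the gene's reads. Here and below sequences are on the RNA's strand in DNA letters, 5′ to 3′, in hg38, and capitals mark ATCTT, the DNA form of AUCUU, an element known for MATR3.
TARDBP intron 2, replicate 1: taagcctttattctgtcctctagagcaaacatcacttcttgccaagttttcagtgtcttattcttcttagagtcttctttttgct
TARDBP intron 2, replicate 2: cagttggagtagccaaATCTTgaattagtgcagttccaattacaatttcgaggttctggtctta

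The remaining TARDBP sites were a cluster of 7 reads (2 distinct) in intron 1 in replicate 3, and a 38 nt cluster of 10 reads (3 distinct) in the 3′ UTR in replicate 1, at chr1:11022790-11022827. The 3′ UTR of TARDBP is the part through which TDP-43 is known to lower its own mRNA. The MATR3 cluster there was seen in 1 of 3 replicates only.

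TAF15 and EWSR1 belong to the FET family of nuclear RNA-binding proteins. Both had many intronic sites. EWSR1 had 20, 21 and 32 clusters with 346, 331 and 426 reads, which gave 239, 249 and 313 normalised reads and a mean of 267 ± 40.4 (SD, n = 3). Replicate 3 was the highest in both clusters and reads. The gene spans 32517 nt, and with 8.22 normalised reads per kb ± 1.24 (SD, n = 3) it was the densest of the 8. It was above 91.3% of the 8469 genes that had a cluster in all replicates and could be given a span. The corresponding median was 1.54 per kb. Its clusters lay in 11 of 16 introns. Intron 1 held 25 of 71 clusters within introns (35.2%) while making up 12.9% of the intron length. The leading cluster fell in intron 1 in replicate 1, in intron 8 in replicate 2 and in intron 3 in replicate 3, with 58, 38 and 52 reads. The sites of replicates 1 and 3 are shown as the most read.
EWSR1 intron 1, replicate 1, chr22:29268825-29269037, plus strand: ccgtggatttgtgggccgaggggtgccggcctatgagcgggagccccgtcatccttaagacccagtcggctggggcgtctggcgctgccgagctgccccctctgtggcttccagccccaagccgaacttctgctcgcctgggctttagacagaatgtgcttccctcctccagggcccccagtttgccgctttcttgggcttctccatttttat
EWSR1 intron 3, replicate 3, chr22:29273276-29273450, plus strand: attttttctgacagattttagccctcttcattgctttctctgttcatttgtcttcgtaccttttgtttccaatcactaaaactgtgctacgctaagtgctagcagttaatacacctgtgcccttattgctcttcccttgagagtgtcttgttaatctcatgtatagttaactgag

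The intron 3 site was T-rich, with 73 T in 175 nt and 64.6% pyrimidines, and no cluster of another replicate overlapped it. The intron 1 site, with 54 T in 213 nt, overlapped a replicate 3 cluster over 9 nt. Neither held ATCTT.

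TAF15 had 27, 20 and 16 clusters with 389, 242 and 194 reads, or 269, 182 and 143 normalised reads (mean 198 ± 64.4, SD, n = 3). Replicate 1 stood highest, in part through a single 234 nt cluster over the start codon and the exon 1 border, with 72 reads, which the other replicates lacked. Intron 7, the longest, held 23 of 50 clusters within introns and had 9, 8 and 6 of them in the 3 replicates. It made up 27.3% of the intron length. Intron 1 held 6, 5 and 1 clusters. The leading clusters of replicates 2 and 3 are shown, since each overlapped a cluster of another replicate.
TAF15 intron 1, replicate 2, chr17:35809834-35809909, plus strand: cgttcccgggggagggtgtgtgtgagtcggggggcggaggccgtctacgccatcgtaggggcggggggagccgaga
TAF15 intron 7, replicate 3, chr17:35825044-35825109, plus strand: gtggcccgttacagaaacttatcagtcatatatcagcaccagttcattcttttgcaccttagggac

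These sites differed in composition. The intron 1 site, with 29 reads, had 11 T in 76 nt and 35.5% pyrimidines, while the intron 7 site, with 24 reads, had 20 T in 66 nt and 56.1% pyrimidines.

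The deposited gene name did not follow the present TAF15 gene model. All 8 clusters of the class retained intron among the 8 genes were named TAF15, yet they lay 56.9 to 78.0 kb upstream of the start of its canonical transcript, outside its span in GENCODE release 44. They held 35, 17 and 7 reads, and without them TAF15 had 184 normalised reads ± 54.8 (SD, n = 3). Past the end of the canonical transcript, but inside the GENCODE span and on the same strand, a further 14, 23 and 17 clusters without a gene name held 281, 367 and 227 reads. Of these unnamed clusters, 3, 6 and 4 overlapped one of another replicate. When clusters were assigned by GENCODE span, TAF15 rose to 396 normalised reads ± 79.4 (SD, n = 3), the highest of the 8 genes. This assignment was chosen after the values were seen.

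ATXN2, a cytoplasmic RNA-binding protein of stress granules in which longer polyglutamine tracts raise the risk of ALS, had the most sites. Its clusters numbered 42, 29 and 34, with 492, 347 and 372 reads and 340, 261 and 274 normalised reads. Replicate 1 was the highest, and all 3 replicates lay above every replicate of TIA1, VCP and TBK1. ATXN2 is also by far the longest of the 8, with a span of 156192 nt. Per kb its level of 1.87 ± 0.27 (SD, n = 3) was near the middle of the same 8469 genes, above 55.2% of them. Clusters lay in 9 of 24 introns, most of them in the 3 longest. Intron 1 of 42864 nt held 34 of 98 clusters within introns (34.7%) and made up 30.03% of the intron length. Intron 14 held 25 and intron 5 held 22. Among clusters that carry a member's name, the most read lay in ATXN2 intron 1 in replicate 2. It had 84 reads (38 distinct), 24.2% of the gene's reads there. The leading cluster of replicate 3, with 33 reads, lay inside it, and replicate 1 had no cluster there. The site is shown as the most read of the gene.
ATXN2 intron 1, replicate 2, chr12:111597302-111597587, minus strand: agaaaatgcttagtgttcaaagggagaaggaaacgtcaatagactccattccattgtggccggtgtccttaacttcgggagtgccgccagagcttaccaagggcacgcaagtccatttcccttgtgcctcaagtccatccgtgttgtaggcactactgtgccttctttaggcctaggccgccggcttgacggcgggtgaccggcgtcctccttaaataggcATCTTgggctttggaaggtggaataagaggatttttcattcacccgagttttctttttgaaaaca

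The intron 1 site was 51.4% pyrimidines and held ATCTT once, from position 222 of its 286 nt.

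TIA1, a U-rich RNA-binding protein of splicing and stress granules, had 11, 15 and 16 clusters with 187, 230 and 189 reads. That gave 129, 173 and 139 normalised reads and a mean of 147 ± 23.1 (SD, n = 3). Replicate 2 was the highest. Apart from a cluster in the 3′ UTR in replicate 3, its clusters fell in only 3 of 12 introns, introns 1, 6 and 7, and each of the 3 held clusters in every replicate. Intron 7 held 5, 9 and 7 clusters, intron 1 held 4, 5 and 5, and intron 6 held 2, 1 and 3. Intron 1 took 34.1% of the clusters within introns and 35.4% of the intron length. Among clusters that carry a member's name, TIA1 held the only regions, after overlapping clusters were merged, that were seen in all 3 replicates. They are shown for that reason.
TIA1 intron 1, chr2:70246421-70246519, minus strand: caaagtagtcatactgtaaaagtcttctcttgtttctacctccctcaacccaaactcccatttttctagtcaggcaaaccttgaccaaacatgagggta
TIA1 intron 1, chr2:70247133-70247257, minus strand: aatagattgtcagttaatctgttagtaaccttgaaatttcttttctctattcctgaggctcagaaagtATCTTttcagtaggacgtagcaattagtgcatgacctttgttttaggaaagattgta

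The first of these had 11, 14 and 13 reads in the 3 replicates, and 43 nt were covered in all 3. The second had 49, 14 and 27 reads and held ATCTT once, but only 1 nt was covered in all 3 replicates, so it rests on a chain of partial overlaps. They lay 1885 nt and 1147 nt from the exon before them.

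**Figure D2:**
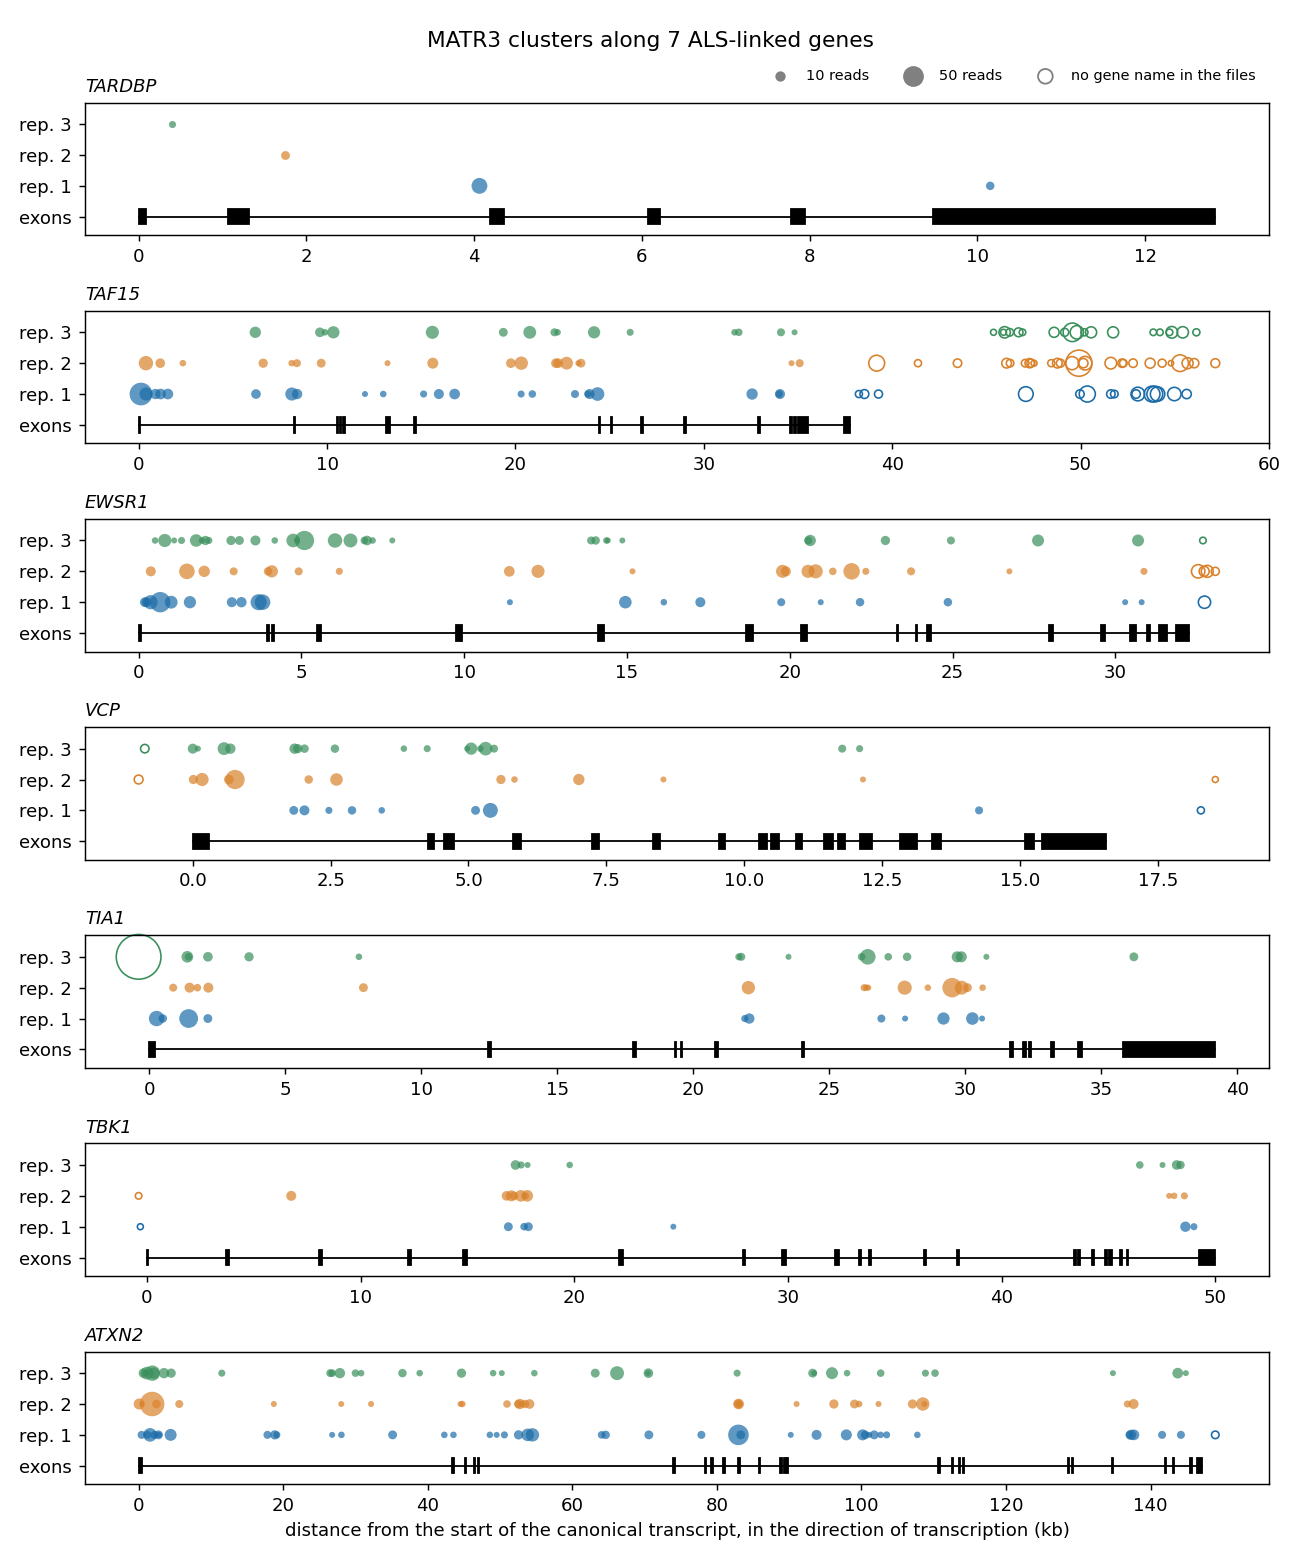
Position of clusters along 7 of the 8 genes, in kb from the start of the canonical transcript in the direction of transcription. Rows are replicates, black boxes are exons, the area of a filled circle is the number of reads in the cluster, and open circles are clusters on the same strand with no gene name in the files. Intronic TIA1 clusters lie in introns 1, 6 and 7, TBK1 clusters gather in introns 5 and 20, and open circles follow the end of TAF15. C9orf72, with 1 cluster, and the 8 distant TAF15-named clusters are not drawn.

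C9orf72 carries a hexanucleotide repeat whose expansion in intron 1 is the most common known genetic cause of ALS. It had 0, 1 and 0 clusters, with 6 reads (2 distinct) in replicate 2. A count of 0 clusters says only that no site passed the limits of the tables. The cluster lay in intron 1, 2810 nt from the exon before it, at chr9:27570584-27570620 on the minus strand, and is shown because it is the gene's single site.
C9orf72 intron 1, replicate 2: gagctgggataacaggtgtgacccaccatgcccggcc

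VCP, an ATPase that pulls ubiquitinated proteins out of complexes and membranes, had 8, 11 and 17 clusters with 99, 179 and 200 reads. These were 68.4, 135 and 147 normalised reads, so replicate 1 lay well below the others. VCP spans 18741 nt, and its 6.23 normalised reads per kb ± 2.26 (SD, n = 3) exceeded those of 86.6% of the 8469 genes. Its level per gene exceeded that of 70.3% of the 8906 genes with a cluster in all replicates. Intron 1 held 16 of 27 clusters within introns (59.3%) and 31.0% of the intron length, and intron 3, 1073 nt long, held 8. All 4 clusters that the files class as 5′ UTR among the 8 genes were in VCP. Replicates 2 and 3 had 2 each, they overlapped in pairs, and replicate 1 had none. In intron 3 the leading clusters of replicates 1 and 3, with 31 and 26 reads, lay side by side without overlapping. They are shown as such a pair.
VCP intron 3, replicate 1, chr9:35067209-35067246, minus strand: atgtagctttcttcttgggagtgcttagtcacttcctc
VCP intron 3, replicate 3, chr9:35067268-35067361, minus strand: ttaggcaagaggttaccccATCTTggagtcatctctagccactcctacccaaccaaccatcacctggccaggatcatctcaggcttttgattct

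TBK1, a kinase of autophagy that also acts downstream of STING in innate immune signalling, had 6, 10 and 8 clusters with 57, 117 and 67 reads. Its 39.4, 88.1 and 49.3 normalised reads gave a mean of 58.9 ± 25.8 (SD, n = 3). That exceeded the level of 49.8% of the 8906 genes with a cluster in all replicates. Replicate 2 was the highest. All 24 clusters were intronic and fell in 4 of 20 introns. Intron 5 held 3, 6 and 4 of them and intron 20 held 2, 3 and 4, so these introns had clusters in every replicate. Intron 5 made up 15.2% of the intron length and held 13 of the 24 clusters. Intron 1 held none and made up 7.77%. The leading clusters of replicates 2 and 3, with 19 and 13 reads, both lay in intron 5. They were 71.2% and 57.6% pyrimidines and are shown as sites of that intron.
TBK1 intron 5, replicate 2, chr12:64469584-64469649, plus strand: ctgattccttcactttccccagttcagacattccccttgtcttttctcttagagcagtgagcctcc
TBK1 intron 5, replicate 3, chr12:64469341-64469399, plus strand: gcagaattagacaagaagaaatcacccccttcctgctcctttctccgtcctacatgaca

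Every sequence printed above occurred once on the chromosomes of hg38 as an exact match on either strand.

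Neighbours in the order of levels were compared within replicates by the exact two-sided sign-flip test of the log2 ratio. The order was set by the means of these same values, so the pairs and their direction were not chosen independently of them. Replicate counts and p-values below therefore only describe the pairs and are no support for the order. With 3 replicates this test cannot give a p below 0.25, so none of the 12 comparisons could pass a threshold of 0.05, and the smallest value after Benjamini-Hochberg adjustment was 0.5. Per gene, TBK1 and TARDBP were the only tested neighbours whose ranges did not overlap: the log2 ratio was 2.34 ± 1.73 (SD, n = 3), higher in 3 of 3 replicates (exact p = 0.25). VCP lay above TBK1 in 3 of 3 replicates, with a log2 ratio of 0.996 ± 0.512 (SD, n = 3, exact p = 0.25), but the ranges overlapped. ATXN2 and EWSR1 differed by less than their spread, with a log2 ratio of 0.13 ± 0.36 (SD, n = 3, exact p = 0.75). TAF15 and TIA1 also overlapped, as did EWSR1 and TAF15, and TIA1 and VCP. The ranges of TARDBP and C9orf72 did not overlap either, but that pair was not tested, since C9orf72 was at 0 in 2 replicates. Per kb of span, the order was EWSR1, VCP, TIA1, TAF15, ATXN2, TBK1, TARDBP and C9orf72. In that order the ranges of TAF15 and ATXN2 did not overlap, with a log2 ratio of 0.90 ± 0.31 (SD, n = 3, exact p = 0.25), whereas every other tested pair of neighbours did. The place of TAF15 depends on the gene names, because its span holds unnamed clusters: with clusters assigned by GENCODE span it had 7.19 per kb ± 1.44, between EWSR1 at 8.22 ± 1.24 and VCP at 6.38 ± 2.16 (SD, n = 3).

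By overlap of at least 1 nt, the share of sites that recurred was near that of all genes. A site was taken as recurrent if any same-strand cluster of a different replicate shared 1 nt or more with it. This held for 25 of 116, 32 of 108 and 24 of 124 member clusters, 81 of 348 in all, against 21.7% of all clusters with a gene name. The mean share was 23.5% ± 5.41 (SD, n = 3), so the difference from all genes was smaller than the spread between replicates. When 50% of both clusters had to overlap, the share was 7.80% ± 1.18, below the 11.0% ± 0.326 of all genes (SD, n = 3), with 10, 9 and 8 clusters in the 3 replicates. Clusters found in both other replicates numbered 2, 2 and 2, or 1.73% ± 0.12 (SD, n = 3), against 2.53% over all genes. Merging the overlapping clusters left 305 regions, of which 267 were seen in 1 replicate, 36 in 2 and 2 in 3. TAF15 and EWSR1 had 8 regions each in 2 replicates, ATXN2 had 7, VCP 6, TIA1 5 and TBK1 2.

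Recurrence differed among the genes. It was 42.9% of clusters in TIA1 (18 of 42) and 33.3% in VCP (12 of 36), and 14.3% in ATXN2 (15 of 105), the longest gene. TARDBP and C9orf72 had none. Shares within 100 nt include the overlapping clusters, so they cannot be lower than shares by overlap. A cluster of another replicate lay within 100 nt of 175 of 348 member clusters (50.3%), and of 43.8% ± 1.53 of all clusters with a gene name (SD, n = 3). The share within 100 nt was 72.2% in VCP, 66.7% in TBK1 and 60.3% in EWSR1, and 35.2% in ATXN2. In TBK1, 16 of 24 clusters had such a neighbour, while 4 overlapped one. Differences between the genes were not tested. Denser genes have more clusters in a given stretch. Of all gene-named clusters of at least 60 nt, 39.2% overlapped one of another replicate, so longer clusters recurred more often. The median cluster length was 46.5 nt in TIA1, 39.5 nt in VCP and 39 nt in ATXN2. The parts of density and of cluster length in these shares were not tested.

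**Figure D3:**
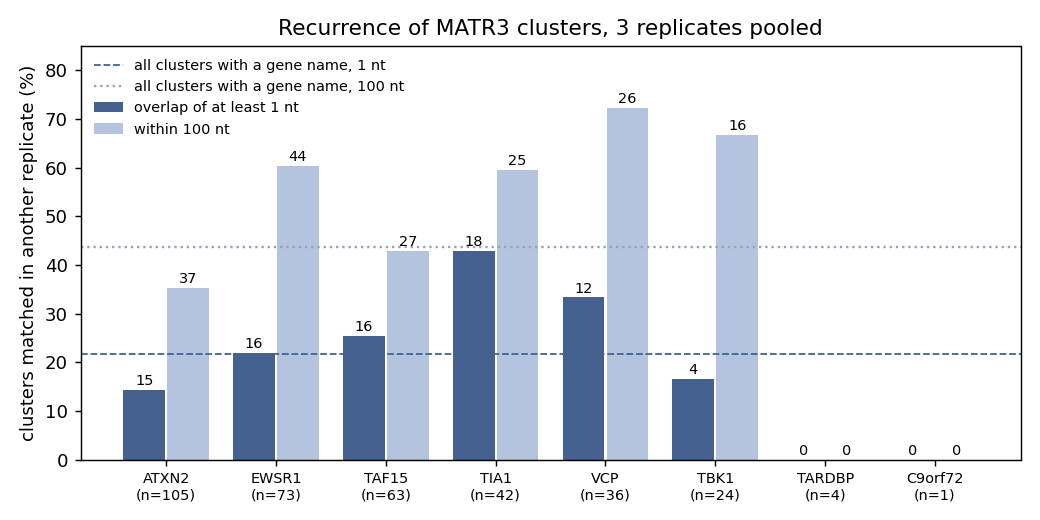
Share of clusters of each gene that had a cluster of another replicate overlapping by at least 1 nt (dark bars) or within 100 nt (light bars), with the number of clusters above each bar and all clusters of the gene as n. Lines give the same shares over all clusters with a gene name, 21.7% (dashed) and 43.8% (dotted). TIA1 has the highest share by overlap, 18 of 42, and VCP by proximity, 26 of 36.

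Introns held most sites. Of the 348 clusters, 310 (89.1%) had the class intron, 11 were coding, 8 retained intron, 7 intron-coding, 4 coding-intron, 4 in the 5′ UTR, 3 in the 3′ UTR and 1 at a start codon. The intron share was 88.9% ± 4.92 and over all nuclear clusters with a gene name 83.5% ± 0.42 (SD, n = 3). Replicate 2 was at 83.3%, at the level of all genes, so the shares overlapped. By GENCODE span the members' share was lower, at 77.8% ± 7.92 (SD, n = 3), because the unnamed clusters then added carry no annotation class in the files. It lay below the share of all genes, whose clusters were still taken by gene name. The 3 clusters that the files class as 3′ UTR came from TARDBP, EWSR1 and TIA1, each in a different replicate, with 10, 7 and 11 reads. That of EWSR1 lay in intron 8 of the canonical transcript, 957 nt from the nearest exon edge. It therefore also counts among that gene's clusters within introns. Coding clusters were most frequent in replicate 2, with 8 of the 11.

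Within introns, 32.9% ± 4.51 of member clusters lay in intron 1, against 33.1% ± 0.971 for all genes (SD, n = 3), where intron 1 made up 26.0% of the intron length weighted by clusters. Among the 6 genes with over 20 clusters the share ran from 0 of 24 in TBK1 to 16 of 27 in VCP. Member clusters lay nearer to exons. The median distance from the centre of an intronic cluster to the nearest exon edge was 1431 nt ± 227, against 2523 nt ± 153 for all genes (SD, n = 3), and it was shorter in 3 of 3 replicates. Clusters within 500 nt of an exon made up 23.4% ± 5.93 of the members' and 15.5% ± 0.613 of all (SD, n = 3). In replicate 2 this share was close to that of all genes, at 16.7% against 15.7%. Gene and intron lengths differ between these sets, and their part in the distance was not tested.

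The AUCUU element was uneven among the 8 genes. ATCTT was searched on the RNA's strand of each cluster. It occurred in 45 of 348 clusters, and the shares were 12.1%, 10.2% and 16.1% in replicates 1, 2 and 3. Their mean of 12.8% ± 3.04 compared with 9.34% ± 0.394 over all nuclear clusters with a gene name (SD, n = 3). Over intronic clusters alone the members' share was higher by 4.05 percentage points ± 1.77 (SD, n = 3), in 3 of 3 replicates. Counted per 1000 nt of cluster sequence, the difference over all member clusters was 0.553 ± 0.866 occurrences (SD, n = 3), smaller than its spread. Replicate 2 was lower than all genes, at 1.73 against 1.91. Over intronic clusters alone the difference per 1000 nt was 0.649 ± 0.630 (SD, n = 3), about the size of its spread. In replicates 1, 2 and 3 it was 0.566, 0.064 and 1.32. ATXN2 and TIA1 supplied 19 and 10 of the 45 clusters. Per 1000 nt of cluster sequence, ATXN2 had 4.14 occurrences and TIA1 4.37, against 1.59 and 1.99 per 1000 nt over their whole spans. VCP had 0.527 and TBK1 0.962, below the 1.23 and 1.74 of their spans. EWSR1 and TAF15 lay slightly above their spans, at 1.67 against 1.29 and 1.81 against 1.43. These counts are small, with 1 occurrence each in VCP and TBK1, and overlapping clusters of different replicates count the same bases more than once. A match describes the letters and is not a shown contact.

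**Figure D4:**
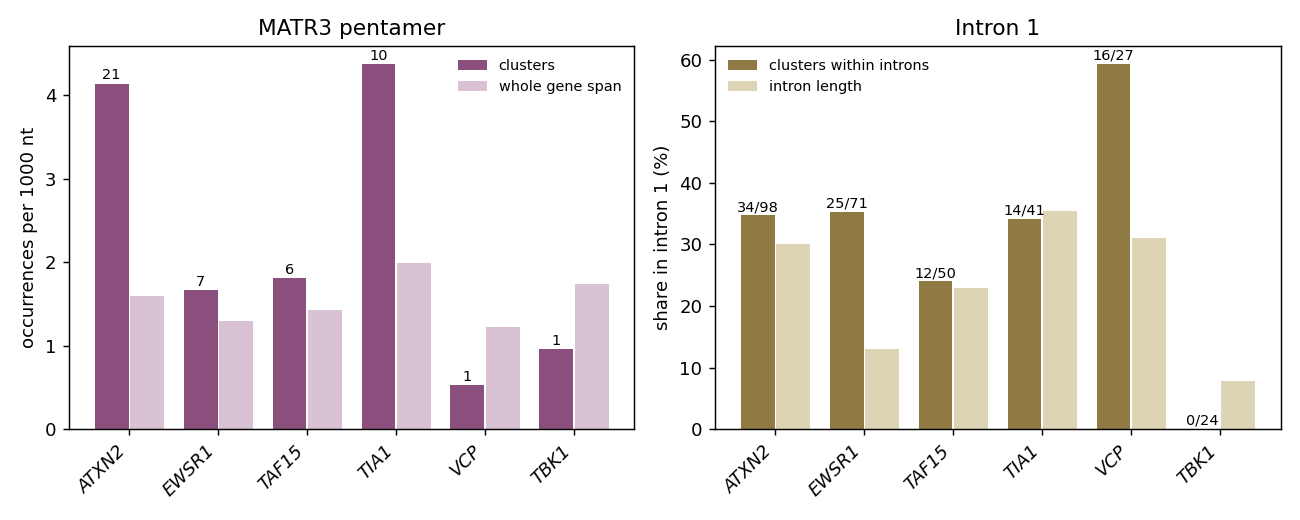
Left, occurrences of the MATR3 pentamer AUCUU per 1000 nt in clusters (dark) and over the whole gene span (light), with the number of occurrences above the bars. Right, share of clusters within introns that lie in intron 1 (dark, counts above the bars) and share of the intron length that intron 1 makes up (light). The 6 genes with over 20 clusters are shown, replicates pooled. ATXN2 and TIA1 have the most occurrences per 1000 nt, 4.14 and 4.37, and VCP has the largest share of clusters in intron 1, 16 of 27.

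Base composition and conversion were close to those of other genes. T made up 31.0% ± 1.55 of member cluster bases and 31.3% ± 0.894 of all (SD, n = 3). C was lower in the members' intronic clusters, at 23.3% ± 0.425 against 25.5% ± 0.0506 (SD, n = 3), and lower in 3 of 3 replicates. T-to-C conversion, the conversion events over all T positions read, was 10.7% ± 0.404 in member clusters and 11.0% ± 0.369 in all nuclear clusters with a gene name (SD, n = 3). The difference was -0.256 percentage points ± 0.0966, lower in 3 of 3 replicates (SD, n = 3, exact two-sided sign-flip p = 0.25, the smallest possible). It changed sign, to 0.0237, when clusters with fewer than 3 conversion locations were left out.

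Other genes linked to ALS were counted from a list of 30. Clusters were present in all 3 replicates for 20 of them, in 2 replicates for 3, in 1 for 3 and in none for 4. Among the highest were VAPB, a membrane contact protein of the endoplasmic reticulum, with 257 normalised reads ± 122, and DCTN1, a dynactin subunit, with 193 ± 44.9 (SD, n = 3). ANG, TUBA4A, UNC13A and STMN2 had no cluster. Among genes with clusters in every replicate, the median level was 76.6 normalised reads over 20 listed genes and 147 over 7 members, beside 59.5 over all 8906.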

How the data were processed

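The authors deposited 1 table of clusters per replicate, 3 in all. Per the file headers these give read, distinct read and conversion counts, the fraction of reads with T-to-C, a conversion specificity on a log10 scale and a mode score. The counts as deposited were not normalised, and the log10 and score columns were not used. The genome build is hg38, per the submitters' processing notes. Aligner, cluster caller and annotation release are not given in the sources used here. The sequences of all 348 member clusters equalled hg38. Classes and gene names are the authors', from the deposited tables.

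Clusters were selected by gene name and reads divided by those in all gene-named clusters. Spans and introns came from GENCODE release 44 and its canonical transcripts. Python 3.11.15 with numpy 2.4.6 and pandas 2.3.3 was used. The overlap search and the sign-flip test were tested on simulated data. All 8 genes are named, with the leading cluster of each replicate and regions in all replicates. Of the other 30 ALS-linked genes, the rule named the 3 highest and those without a cluster. A leading site and a listed gene that these rules name are not reported here. The members and lists were chosen with earlier results of these data known. Alternatives covered stricter cluster sets, other measures and overlaps, each replicate left out, and, added after seeing the data, assignment by GENCODE span and clusters of at least 60 nt.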

Additional observations from a re-analysis of the deposited data

Results flagged for a closer look

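Clusters on the same strand without a gene name, inside a gene's GENCODE span or within 2000 nt of it, were picked out because the comparisons above do not use them. There is no control library. TAF15 had 991 such reads over the 3 replicates, in 61 clusters between 0.457 and 19.4 kb past the end of its canonical transcript, and the largest held 95 reads. That cluster, of replicate 2 at chr17:35859257-35859536, overlapped a cluster of 10 reads in replicate 1 and a cluster of 25 reads in replicate 3, which did not overlap each other. TIA1 had 279 reads, all in a single 82 nt cluster of replicate 3 at chr2:70248984-70249065, upstream of the gene's start. It had 86 distinct reads, and neither other replicate had a cluster there. EWSR1 had 95 reads, downstream of its end, in 1, 4 and 1 clusters of replicates 1, 2 and 3. One of replicate 2, at chr22:29300962-29301033 with 14 reads, likewise overlapped the clusters of replicates 1 and 3, with 21 and 6 reads. VCP had 33 reads, C9orf72 had 13 in 1 cluster of replicate 2, TBK1 had 11 and ATXN2 had 8. TARDBP had none. Whether these reads belong to the genes' transcripts was not tested.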

How the results depend on the processing

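The sum of normalised reads over the 8 genes was 1096 ± 22.8 (SD, n = 3). It was 1182 with clusters of at least 10 reads, 1158 with at least 3 conversion locations, 967 with all cluster reads as the denominator, and 1302 by GENCODE span. Only the 8 genes gained unnamed clusters by span, so 1302 is not a level among all genes assigned in that way. As clusters per 1000000 clusters with a gene name the sum was 1031. With reads divided by gene span in kb for members and for all genes it was 382 per 1000000. The share of clusters found in another replicate was 13.5%, 8.75% and 15.7% without replicates 1, 2 and 3, since 1 other replicate then remained to match. It was 7.80% with 50% of both clusters overlapping, 50.3% within 100 nt and 41.6% for clusters of at least 60 nt, against 11.0%, 43.8% and 39.2% of all clusters with a gene name. The intron share fell to 77.8% by GENCODE span. ATCTT was in 16.3% of clusters weighted by reads. Counted per 1000 nt it had 2.64 occurrences, against 2.08 over all nuclear clusters with a gene name. The conversion difference reversed to 0.0237 with at least 3 conversion locations, and the cause was not tested. Of 128 values under alternative settings, these were the ones to move or reverse among the main results, and 10 moved among single genes. No paired analysis was possible because there is a single group, so no samples of different groups could be paired, and genes were compared within replicates. Reads per cluster had a median of 10 in the members, and 27.3% ± 5.57 of clusters had at most 2 distinct reads (SD, n = 3), which limits single sites.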
